A study of Sus scrofa with 3 samples.

Results

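Stretches of liver DNA whose CG methylation differed between pig breeds were examined on the unplaced scaffolds of the pig genome build Sscrofa10.2. A row belonged to this set when its sequence name was none of chromosomes 1 to 18, X, Y or MT. Over the 3 breed comparisons, 2328 of 25044 listed regions (9.30%) and 9443 of 89093 listed CG sites (10.6%) met this rule, on 1601 scaffolds, of which 1276 had names starting with GL and 325 with JH. Liver of 90-day-old males of the Chinese breed Enshi black pig (ES), the European breed Large White pig (LW) and Chinese wild boar (WB) had been sequenced after bisulfite conversion, with 1 methylome per breed. The growth protocol names 3 pigs, and whether DNA of several animals was pooled is not stated in the sources used here. The deposited lists hold sites and regions that the authors had called as differing between 2 breeds, each with its estimated methylation level in both breeds. Their read depth is unknown. With 1 methylome per breed there was no replicate check, so no test between breeds was made and the values below describe these 3 libraries. Each methylome entered 2 of the 3 comparisons, so the comparisons are not independent of each other.

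In mammals, DNA methylation lies mainly on the cytosine of CG dinucleotides, and most such sites in liver are highly methylated. CG islands, short stretches rich in CG that often cover gene starts, are mostly unmethylated. An unplaced scaffold is a piece of assembled sequence that could not be assigned to a chromosome. Such pieces tend to hold repeats, recent duplications and alleles that the assembly kept apart. Whether the listed scaffold regions have near-identical copies elsewhere in the genome was not tested.

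The scaffolds held 848 of the 8881 regions that separated ES from LW (9.55%). They held 834 of the 9365 regions of ES with WB (8.91%) and 646 of the 6798 regions of LW with WB (9.50%). Single CG sites followed with 3488 of 32384 (10.8%), 3242 of 32226 (10.1%) and 2713 of 24483 (11.1%). The share was thus between 8.91% and 11.1% in every list. How much of the genome's CG sites lies on scaffolds was not analysed here, so no enrichment is implied.

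Listed regions were spread thinly over many scaffolds. Of the 1121 scaffolds with a region, 510 held a single region over the 3 comparisons and 79 held 5 or more, and the 10 scaffolds with the most held 107 regions (4.60%). Regions appeared in all 3 comparisons on 137 scaffolds, in 2 on 409 and in 1 on 575. A further 480 scaffolds had listed sites and no region, while 266 had a region and no listed site. The last listed position of a scaffold had a median of 29142 bp, with quartiles of 10117 and 68959 bp and a largest value of 477290 bp. At the start of the assembled pieces, 84 regions started within the first 500 bp of their scaffold, and 12 of these at position 1.

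Neither breed of a pair was regularly the higher one on scaffolds. ES was higher than LW in 404 of 848 scaffold regions (47.6%, 95% Wilson interval 44.3% to 51.0%), against 45.0% of all listed regions. It was higher than WB in 386 of 834 (46.3%, 42.9% to 49.7%), against 46.0% of all listed regions. LW was higher than WB in 313 of 646 (48.5%, 44.6% to 52.3%), against 50.8% of all listed regions. Taken one by one, chromosomes 1 to 18 ran from 38.2% to 49.8%, from 37.4% to 48.2% and from 37.9% to 61.5% in these 3 comparisons, and each scaffold share fell inside its range. The interval of ES with WB lay below 50% and those of the other pairs held it. These intervals cover the counting of regions only, and regions of 1 scaffold are not independent of each other.

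The level in the lower breed was lower in scaffold regions than in those of the chromosomes, a description with no test. The breed with less methylation had a median level of 43.5% in the comparison of ES with LW, 41.6% with WB and 42.3% between LW and WB. On chromosomes 1 to 18 pooled these medians were 48.5%, 47.7% and 47.1%, and none of the 18 chromosomes had a lower median than the scaffolds in any comparison. A level under 20% in the lower breed occurred in 123 of 848 (14.5%), 118 of 834 (14.1%) and 87 of 646 (13.5%) scaffold regions. The pooled chromosomes had 8.22%, 8.14% and 8.43%, and the highest single chromosome had 9.56%, 10.6% and 11.2%. In the higher breed the medians were closer, with 89.5%, 88.6% and 90.1% on scaffolds and 88.4%, 87.4% and 87.2% on chromosomes. That breed was above 90% in 48.2%, 46.2% and 50.3% of scaffold regions, against 45.1%, 42.8% and 42.3% on the chromosomes, of which 13, 13 and 16 of the 18 were below the scaffolds. Per breed, the medians were 62.3% in ES and 65.9% in LW in the first comparison. They were 59.8% in ES and 65.7% in WB in the second, and 61.9% in LW and 63.3% in WB in the third.

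**Figure D1:**
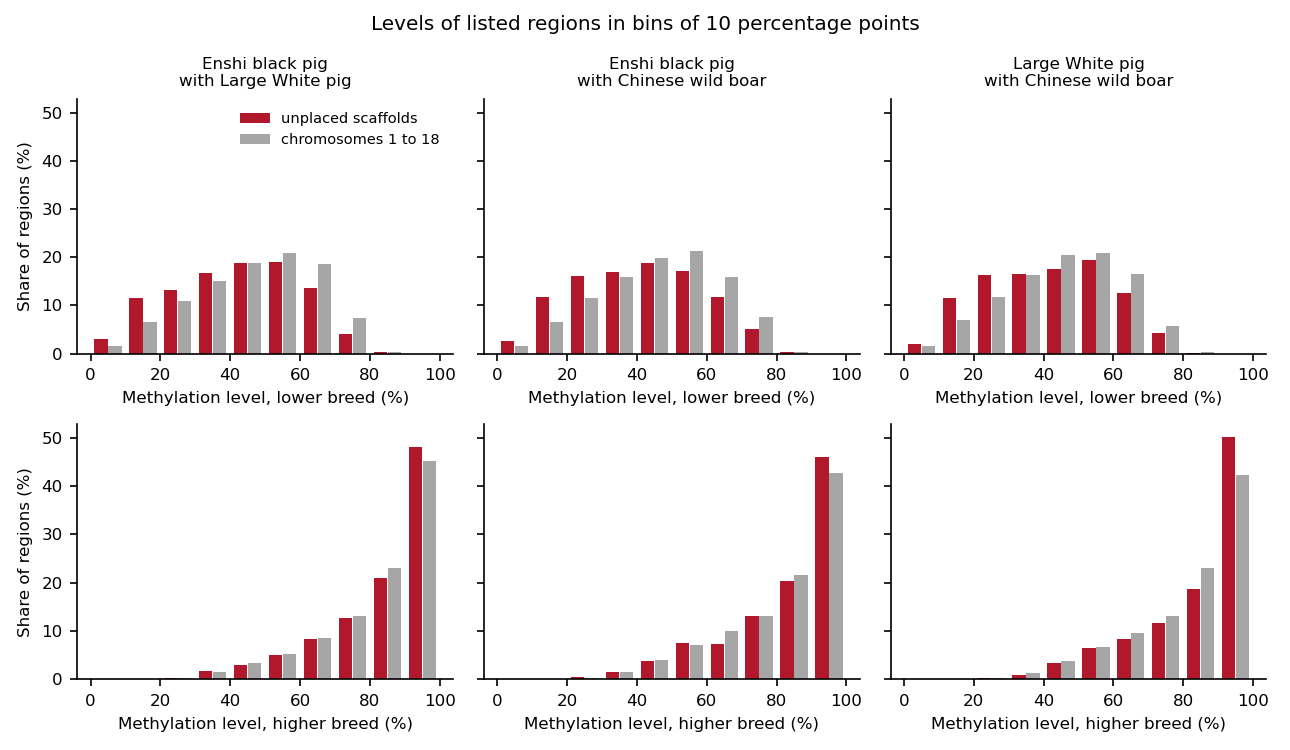
Share of listed regions (y axis, %) by methylation level in bins of 10 points (x axis, %), for the breed with the lower level (upper row) and the higher level (lower row) of each comparison. Red bars are unplaced scaffolds and grey bars chromosomes 1 to 18; in the upper row red exceeds grey below 20%, where scaffolds hold 14.5%, 14.1% and 13.5% of their regions.

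The gap between the breeds was wider on the pooled scaffolds. Its median was 39.1 percentage points between ES and LW, 38.7 between ES and WB and 39.1 between LW and WB. The pooled chromosomes had medians of 33.2, 32.4 and 33.4 points, and the highest single chromosome had 36.8, 37.6 and 37.9 points. Levels at least 40 points apart were found in 411 scaffold regions (48.5%) in the first comparison, against 35.8% of all listed regions. They were found in 391 (46.9%) in the second, against 33.9%, and in 306 (47.4%) in the third, against 36.5%. No chromosome of the 18 reached these scaffold shares, the highest being 42.6%, 44.4% and 44.8%. No test of the difference was made, since regions of 1 scaffold or chromosome are not replicates.

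**Figure D2:**
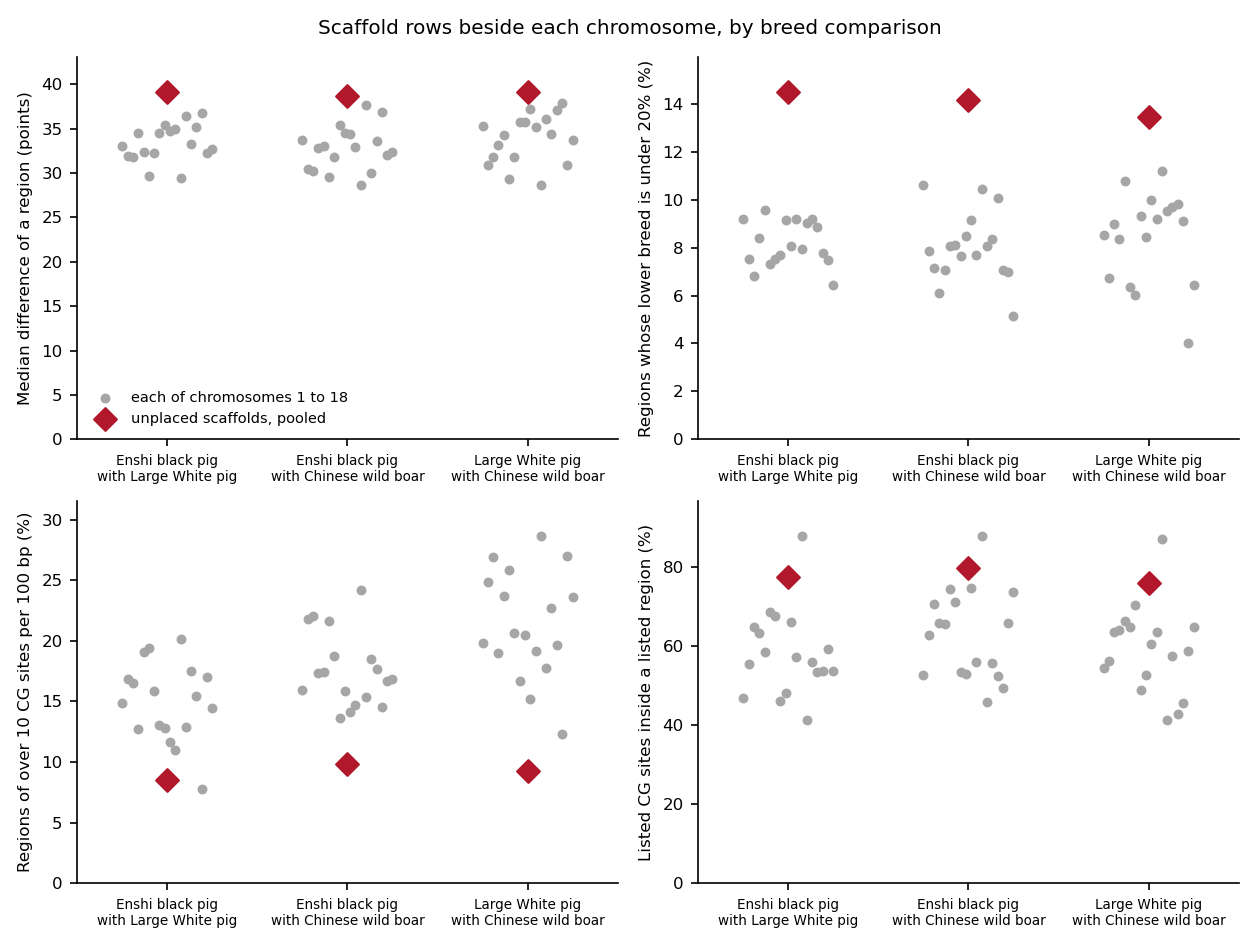
Each grey point is 1 of chromosomes 1 to 18 and each red diamond the pooled unplaced scaffolds, for the 3 breed comparisons (x axis); the y axes give the median difference in points, the share of regions with the lower breed under 20%, the share of regions with over 10 CG sites per 100 bp and the share of listed sites inside a listed region (all in %). The diamonds lie above every chromosome in the upper panels, below 17 or 18 of them for CG density and above 17 of 18 for sites inside regions.

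The wider gap was most marked in regions with many CG sites, a split chosen after the data were seen. Among regions of 4 to 5 CG sites the median gap was 42.4, 40.6 and 40.4 points on scaffolds and 40.1, 40.5 and 42.2 on chromosomes 1 to 18, in the order of comparisons used above. Among regions of 6 to 9 CG sites it was 36.7, 40.1 and 37.2 points on scaffolds and 33.7, 33.3 and 33.2 on chromosomes. Among those of 10 to 19 CG sites the scaffolds had 39.7, 37.9 and 39.6 points and the chromosomes 30.3, 29.6 and 30.7. Regions of 20 or more CG sites numbered 95, 89 and 67 on scaffolds, and their median gap was 35.7, 33.0 and 37.3 points against 25.5, 25.5 and 25.4 on chromosomes. On chromosomes the median narrowed from class to class in all 3 comparisons, and on scaffolds it did so between ES and WB. From 10 CG sites upward the scaffold median exceeded that of every single chromosome in all 3 comparisons.

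**Figure D3:**
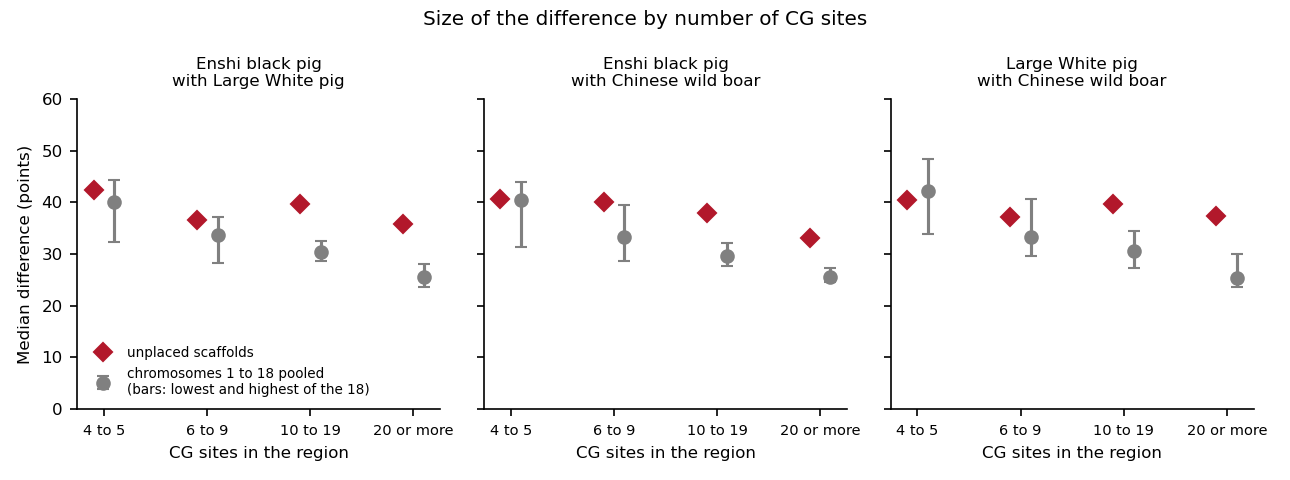
Median difference between the breeds (y axis, percentage points) by the number of CG sites in a region (x axis), for each comparison. Red diamonds are unplaced scaffolds, grey circles chromosomes 1 to 18 pooled, and bars run from the lowest to the highest of the 18; from 10 CG sites upward the diamonds lie above the bars.

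CG density had a similar middle and a shorter upper tail on scaffolds. The median density was 5.42, 5.56 and 5.56 CG sites per 100 bp, against 5.48, 5.71 and 6.17 on chromosomes 1 to 18, and it fell inside the range of single chromosomes in each comparison. Regions of more than 10 CG sites per 100 bp made up 72 (8.49%), 82 (9.83%) and 60 (9.29%) of the scaffold regions. On the chromosomes they made up 15.2%, 17.98% and 21.6%, and among the 18 chromosomes 1, 0 and 0 had a lower share than the scaffolds. Scaffold regions were also slightly shorter, with a median length of 164, 165.5 and 147.5 bp against 177, 177 and 164 bp.

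Regions that were both long and dense, as CG islands are, were rarer still on scaffolds. Among regions of at least 200 bp, a length cut that was combined with density after the data were seen, 7 of 341 scaffold regions (2.05%) between ES and LW exceeded 10 CG sites per 100 bp, against 11.4% on chromosomes 1 to 18. In the comparison of ES with WB they were 6 of 333 (1.80%) against 15.6%. Between LW and WB they were 3 of 227 (1.32%) against 18.6%. The lowest single chromosome had 4.08%, 6.52% and 12.2%. Among shorter regions the scaffold shares of 12.8%, 15.2% and 13.6% fell inside the range of the 18 chromosomes in each comparison.

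The 16 long dense rows covered 10 stretches on 10 scaffolds, and 9 of the rows, on 5 scaffolds, started within the first 500 bp, against 3.61% of all scaffold regions. On GL893901.1 (3 to 324, 41 CG sites), ES had 25.9%, LW 49.3% and WB 51.6%. On JH118980.1 (100859 to 101198, 42 CG sites), ES had 19.5% and LW 67.4%, and in the list with WB the latter had 60.5% over 43 CG sites. ES was the low breed in both. On GL893568.1 (24 to 293, 40 CG sites), WB had 19.2%, ES 60.6% and LW 61.8%, so there WB was the low breed.

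Single CG sites differed from the chromosomes in how they were grouped rather than in the size of their difference. The median difference was 57.1, 56.3 and 57.4 points on scaffolds and 58.1, 56.6 and 57.8 on chromosomes 1 to 18, inside the range of single chromosomes. The smallest listed difference in any list was 28.3 points. The authors' standard error of a site's difference had a median of 6.36, 6.36 and 6.76 points on scaffolds against 6.90, 6.49 and 7.05. Direction was also close to that of all sites in the first comparison. ES was higher than LW at 45.4% of scaffold sites, against 43.8% of all listed sites, and higher than WB at 42.4%, against 44.4%. LW was higher than WB at 44.9%, against 50.7% of all listed sites, 49.6% on chromosomes 1 to 18 pooled and a range of 40.8% to 65.7% over the 18. With at most 1 site per 100 bp this last share was 47.4% on scaffolds and 47.9% on the pooled chromosomes.

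Scaffold sites were packed closely. The median gap to the previous listed site of a scaffold was 13 bp in each comparison, against 55, 36 and 45 bp on chromosomes 1 to 18. The first listed site of each scaffold or chromosome has no such gap and was left out. The scaffold sites lay on 747, 724 and 630 scaffolds, so more of them were left out than on the 18 chromosomes. No gap can be longer than its scaffold either, so these medians are not measured on equal terms. Sites inside a listed region of the same comparison were 2702 of 3488 (77.5%), 2588 of 3242 (79.8%) and 2059 of 2713 (75.9%), against 57.7%, 62.4% and 58.4% on the chromosomes. The exception among the 18 was chromosome 12, with 88.0%, 87.8% and 87.1%, and the other 17 were lower than the scaffolds. Isolated sites, more than 500 bp from any other listed site, made up 11.6%, 12.2% and 12.7% on scaffolds and 23.0%, 19.7% and 21.6% on chromosomes. Chromosome 12 was again an exception, with 6.43%, 8.34% and 8.11% isolated sites and a median gap of 12 bp in each comparison. Neighbouring sites often shared their deposited levels, and 56.8%, 56.8% and 56.6% of scaffold sites carried levels identical in both breeds to those of the preceding listed site, against 43.4%, 44.3% and 43.8% on chromosomes. These sites are therefore not separate measurements.

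Neighbouring scaffold regions mostly had the same breed higher when they were close. Of pairs less than 1000 bp apart, 31 of 34 (91.2%, Wilson interval 77.0% to 97.0%), 21 of 27 (77.8%, 59.2% to 89.4%) and 25 of 31 (80.6%, 63.7% to 90.8%) pointed the same way. On chromosomes 1 to 18 these shares were 79.4%, 80.8% and 87.0%, each inside the scaffold interval. At 1000 to 10000 bp the scaffold shares were 60.4%, 51.2% and 44.4% of only 48, 41 and 27 pairs, with wide intervals that all held 50%. On chromosomes 1 to 18 they were 60.8%, 57.0% and 60.3%. These intervals cover the counting of pairs only, and pairs of 1 scaffold are not independent of each other. Scaffolds with 2 or more regions in a comparison numbered 145, 134 and 111, and all their regions pointed 1 way on 79, 63 and 66 of them. A scaffold thus did not regularly carry a single direction over its whole length. The number of regions per scaffold was not taken into account, and whether directions within a scaffold are related was not tested.

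The largest gaps among regions of at least 10 CG sites were close to a switch between nearly full and nearly absent methylation. On GL895007.2 (31818 to 31905, 13 CG sites), ES had 97.5%, LW 8.33% and WB 15.2%. All 13 sites were listed singly in both comparisons at the levels of the region itself, so they are not separate measurements. The standard error of their difference was 3.22 to 4.63 points with LW. On GL895469.1 (6761 to 7159, 14 CG sites), the direction was opposite, with 10.21% in ES and 99.1% in LW. In the list with WB, a longer region there (6761 to 7841, 28 CG sites) had 30.8% in ES and 58.5% in WB. On GL892850.1 (7036 to 7385, 16 CG sites), LW alone was low, with 17.5% against 98.7% in ES and 17.4% against 95.6% in WB.

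The other regions of this set are given for the comparison with the widest gap, and some were listed in another comparison too. ES was low with 13.3% on JH118561.1 (5518 to 5894, 22 CG sites) and 14.8% on GL893189.1 (14 to 245, 21 CG sites), where WB had 95.5% and 96.7%. On the former LW had 28.8% in the list with WB, and on the latter it had 84.4% against 18.3% in ES over 18 CG sites. ES was also low with 16.4% on JH118777.1 (9410 to 9664, 10 CG sites) against 96.9%. WB was the low breed with 13.8% on GL893849.1 (15798 to 15919, 11 CG sites) and 22.7% on JH118582.1 (274158 to 274347, 10 CG sites), where ES had 95% and 98.7%. A region overlapping the former (15888 to 15961, 10 CG sites) had 66.3% in LW and 18.7% in WB. Regions of this set were chosen separately for each direction, so the presence of both directions follows from that choice. Against LW, WB was low with 18.1% on GL892464.2 (15678 to 15853, 11 CG sites), 23.1% on GL892439.2 (97944 to 98457, 25 CG sites) and 16.4% on GL896133.1 (93579 to 93858, 10 CG sites), where LW had 96.4%, 97.0% and 87.7%. On GL896133.1 ES had 74.0%, so WB was below both other breeds. LW was low with 19.8% on GL896456.1 (68265 to 68654, 21 CG sites), where WB had 97.6%. In the list with ES, LW had 21.5% and ES 65.7% (68265 to 68977, 24 CG sites). Between ES and LW, ES was low with 14.5% on JH118728.1 (47942 to 48884, 15 CG sites) and 16.9% on GL893303.2 (75027 to 75154, 10 CG sites), against 95.4% and 96.6%. On the former WB was low too, with 24.4% against 94.6% in LW (47942 to 48070, 11 CG sites). On JH118909.1 (11918 to 13464, 17 CG sites) ES was high, with 86.8% against 13.97% in LW.

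The regions with the most CG sites had smaller gaps than those above, which had been chosen for wide gaps. On GL893609.2 (37815 to 38481, 55 CG sites), ES had 21.4% and LW 55.9%, with 23 sites listed singly. On GL894431.1 (1580 to 2146, 49 CG sites), ES had 47.1% and LW 97.7%, with 44 sites listed. Its stretch from 1580 to 2118 (47 CG sites) had 45.9% in ES and 85.9% in WB, with 32 sites listed. This scaffold had the most listed sites over the 3 comparisons, 76, all of them in these regions, and ES was the low breed in both. On GL896055.1 (46590 to 47223, 49 CG sites), ES had 74.4% and LW 47.1%. On GL896100.1 (9334 to 10117, 46 CG sites), LW had 89.9% and WB 42.7%, with 29 sites listed.

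Some regions with many CG sites held no listed site. On GL896529.1 (378 to 1418, 52 CG sites), the levels were nearly equal, with 80.4% in ES and 82.2% in WB and 0 listed sites inside. On JH118431.1 (48511 to 49301, 59 CG sites), the region with the most CG sites, the levels were 74.9% in ES and 48.5% in WB, also with 0 listed sites. On GL893411.2 (1240 to 1914, 44 CG sites), they were 64.8% in LW and 35.6% in WB, again with 0. How the authors set the ends of a region is not stated in the sources used here.

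The scaffold with the most regions was GL896302.1, with 8 regions between ES and LW, 4 between ES and WB and 2 between LW and WB. They formed a cluster near 20576 to 24530 and another near 101008 to 121165. In the first cluster, LW had 18.1% against 52.5% in ES (20625 to 21066, 22 CG sites) and 22.4% against 49.1% in WB (20576 to 20744, 22 CG sites). Farther along, WB was the low breed, with 26.6% against 64.1% in LW (22119 to 22737, 24 CG sites) and 21.9% against 49.8% in ES (22119 to 22376, 11 CG sites). The low breed thus changed within the cluster. In the second cluster, ES was higher than LW by 20.4 to 38.1 points in 4 regions from 107036 to 121165, and lower at 101008 to 101400 (24 CG sites, 66.5% against 95.1%) and at 109667 to 109982 (22 CG sites, 23.5% against 49.4%). WB was lower than ES at 106822 to 107318 (30 CG sites), with 25.3% against 58.7%, and at 108446 to 108506 (7 CG sites), with 74.1% against 95.5%, and higher at 109773 to 109844 (7 CG sites), with 44.6% against 23.7%. Where both were listed, LW and WB thus lay on the same side of ES in this cluster.

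GL892570.2 followed with 12 regions. After it 4 scaffolds had 11 regions each, of which JH118647.1, with the most listed sites (69), is described. On GL892570.2 the stretch from 124695 to 124766 (4 CG sites) had 31.9% in ES, 23.9% in LW and 88.7% in WB. Its largest gap besides this lay at 98996 to 99230 (6 CG sites), with 97.4% in LW and 34.0% in WB. ES had 53.0% and LW 97.9% at 9611 to 9854 (10 CG sites), and the direction was opposite at 13401 to 13464 (7 CG sites), with 86.8% and 40.01%. On JH118647.1 the stretch from 20444 to 20770 (31 CG sites) had 97.7% in WB, 73.1% in ES and 63.6% in LW. At 158419 to 158836 (21 CG sites) LW was the high breed, with 90.4% against 32.8% in ES, and over 18 of those CG sites 91.1% against 39.5% in WB. LW was high again at 221476 to 221775 (8 CG sites), with 90.6% against 46.6% in ES, and at 221532 to 221618 (4 CG sites), with 90.5% against 53.4% in WB. The breed that stood away from the others thus differed along this scaffold too.

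**Figure D4:**
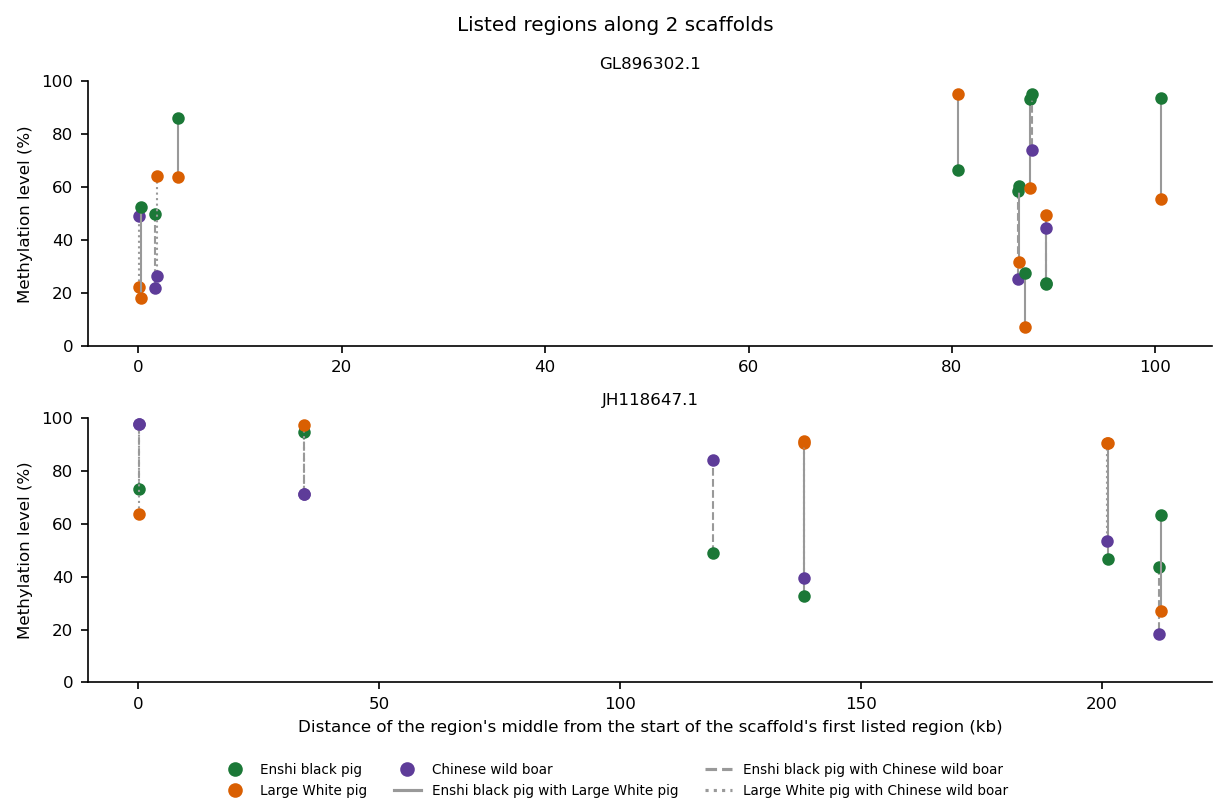
Methylation level (y axis, %) of each listed region of 2 scaffolds against its distance from the scaffold's first listed region (x axis, kb). Dots are ES (green), LW (orange) and WB (purple), and a line joins the levels of a comparison (solid, dashed or dotted by comparison); on GL896302.1 the regions lie in 2 clusters, and on both scaffolds the low breed changes from region to region.

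On 12 scaffold stretches a region of each list covered the same bases. In 10 of them the shared part was at least 10 bp, a limit set after the data were seen, and there ES was the lowest breed in 3, LW in 4 and WB in 3. Over all 12, by the mean of both lists, these counts were 5, 4 and 3. The largest span was on GL894046.2 (55018 to 55281, 21 CG sites), with the same boundaries in every list. There LW had 11.03%, ES 55.2% and WB 97.6%. At levels mostly identical to those of a neighbour, 12 of its sites were listed singly in all 3 comparisons. Of 30 such sites in the whole series, 13 lay on scaffolds. The remaining 1 was at 72579 on JH118484.1, where ES had 89.4%, LW 29.8% or 19.8% and WB 46.3% or 60.9%, depending on the list.

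On GL893335.1 (5 to 248, 28 CG sites), also a long dense region at a scaffold's start, ES had 29.4%, LW 66.3% and WB 97.8%. On GL895302.2 (1351 to 1533) ES had 27.4% or 33.7%, WB 55.4% or 57.5% and LW 89.1%, depending on the list. On GL895912.1 (5527 to 5670) and GL895942.2 (23872 to 23997) the order was the reverse of that on GL893335.1. In the lists with WB, that breed had 20.2%, LW 42.7% and ES 69.7% on the former, and on the latter WB had 22.2%, LW 47.0% and ES 67.4%. On GL896213.1 (7244 to 7366) LW was the low breed with 57.1% to 57.2% and WB the high one with 96.2% or 97.9%, and the ranking was the same on GL894700.2 (50668 to 50736), with 24.0% or 33.9% in LW and 86.2% or 96.4% in WB. GL896524.1 (1 to 78, 5 CG sites in the lists with ES) had WB low with 22.9%, ES at 53.0% and LW high with 84.9%, and GL894264.1 (19577 to 19612) had LW low with 36.5% or 37.8%, WB at 59.5% or 59.8% and ES high with 79.8%. On GL893609.2 (37923 to 38083) ES had 21.4% or 22.5%, WB 40.2% or 40.7% and LW 55.9% or 63.3%. The last 2 stretches shared few bases, 7 bp on GL892927.2 and 1 bp on GL894553.1, so their levels describe largely different sites. On the other 10, each breed was high, low and intermediate on at least 3.

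**Figure D5:**
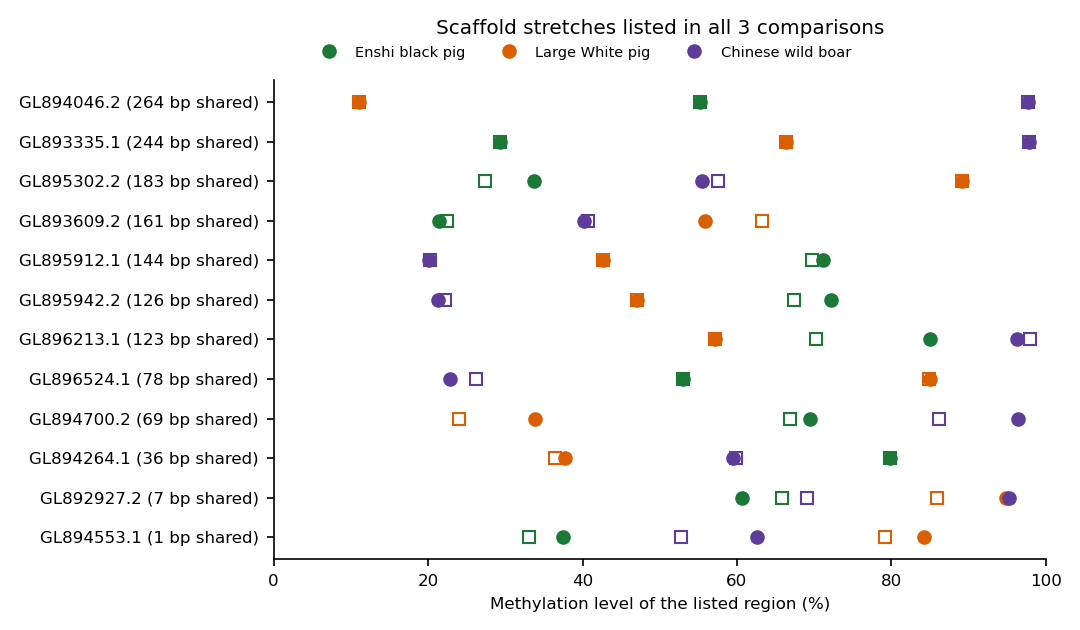
Methylation level (x axis, %) of ES (green), LW (orange) and WB (purple) on the 12 scaffold stretches listed in all 3 comparisons (y axis, with the bases they share). Filled circles come from the list with LW for ES and from the list with ES for the other breeds, and open squares from the remaining list; circle and square coincide where both lists hold the same region.

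Joining regions that shared at least 1 bp gave 1761 separate scaffold loci, of which 1231 (69.9%) stood in a single list, 509 (28.9%) in 2 and 21 (1.19%) in 3. On chromosomes 1 to 18 these shares were close, with 71.5%, 27.7% and 0.809%. In a pair of lists the breed common to both was measured once, so that its place on the same side of both says nothing beyond the levels themselves. ES was the common breed with the same direction in both at 194 loci (11.02%), LW at 137 (7.78%) and WB at 174 (9.88%), near the chromosome shares of 12.2%, 7.08% and 8.38%. At 4 loci the directions were mixed. Where ES was the lower one (129 loci), its median level was 45.4% and that of the other breeds 88.9%. LW had 37.2% against 89.5% at 91 loci and WB 38.0% against 85.9% at 102 loci. Where a breed was the higher one, ES had 86.2% against 40.3% (65 loci), LW 92.8% against 41.4% (46 loci) and WB 88.5% against 44.7% (72 loci). Loci where the common breed was the lower one made up 66.5% (ES), 66.4% (LW) and 58.6% (WB) of these scaffold loci. On chromosomes 1 to 18 they made up 71.9%, 69.7% and 63.1%. Thus each breed had loci of both kinds.

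Genes of the study's list of merged transcripts lay on 10 of the scaffolds, and on 7 of these at least 1 had a symbol. The list gives no position on the scaffold. Whether a region lies in such a gene is therefore unknown. Listed regions were found on 4 of the 10, single sites on 6, and neither on 3. What share of all scaffolds of the build held a listed row was not analysed here, so these counts have no background. The list held 9 identifiers without a symbol, of which 1 matched a gene name.

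GL892933.2 carries ANG and RNASE4, which encode secreted ribonucleases and are expressed in liver. At 10825 to 10910 (5 CG sites) ES had 18.95% and WB 97.1%. All 5 sites were listed at these same levels, with a standard error of the difference of 8.66 to 13.3 points. At 35027 to 35237 (13 CG sites) WB was the low breed, with 54.5% against 95.7% in ES and 99.1% in LW. Single sites outside regions lay at 143114 and 143141, with 9.02% in ES and 98.4% in WB, and at 68671, with 42.0% in LW and 89.7% in WB. WB was thus higher at some places of this scaffold and lower at another.

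GL893735.2 carries C16orf62, also known as VPS35L, which takes part in recycling membrane proteins from endosomes. At 4947 to 5213 (7 CG sites) ES had 32.2% and WB 88.7%, and over 5 of these CG sites (5031 to 5213) it had 29.2% and LW 77.8%. At 67805 to 68010 (11 CG sites) WB was the low breed, with 49.7% against 96.2% in ES and 86.4% in LW. WB was also low at 79571 to 79762 (10 CG sites), with 47.9% against 83.6% in LW. At 104629 to 104731 (4 CG sites) ES had 67.5% and LW 96.7%. The 6 regions thus lay at 4 places, with ES low at 2 of them and WB at the other 2.

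GL896557.1 carries SNORA64 and SNORA10, small nucleolar RNAs that guide the modification of ribosomal RNA. At 15235 to 15534 (27 CG sites) LW had 96.3%, ES 54.7% and WB 57.3%, with 16 and 8 sites listed singly. WB was the high breed at 11507 to 11681 (10 CG sites), with 59.5% against 36.6% in ES, and at the overlapping 11502 to 11679 (10 CG sites), with 58.1% against 39.7% in LW. On GL892805.1, which carries TCEA3, a transcription elongation factor, 1 region (139362 to 139441, 8 CG sites) had 78.9% in ES and 42.6% in WB, with 0 listed sites.

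On the scaffold of SNORD86, SNORD57 and SNORA51 (GL894920.1), 1 site at 3017 had 48.5% in LW and 95.8% in WB. GL893397.2, whose genes have no symbol here, had 6 listed sites and 0 regions. Its site at 61768 had 99.6% in ES, 4.45% in LW and 98.8% in WB, a gap as wide as those of the regions above at a single CG site. At 30526 WB was the high breed, with 92.2% against 24.0% in ES and 90.1% against 24.5% in LW. The scaffolds of MIOS, a regulator of the mTORC1 pathway, and of SF3B3, a splicing factor, had no listed region or site.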

How the data were processed

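Sites and regions were taken as the authors deposited them in 3 lists of differentially methylated CG sites and 3 of regions. Alignment tool and build, by the submitters' processing notes, were Bismark 0.15.0 and Sscrofa10.2, while the sources used here do not name the caller or its thresholds. In the deposited lists the methylation level of each breed is a fraction, which was multiplied by 100 to a percent. The standard error of a site's difference, on the scale of the deposited fraction, was used as the authors gave it. The authors also deposited the difference, the test statistic and the area statistic (a score of their model), p-values and false discovery rates, which were not used. Read counts were not used here, so depth is unknown.

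Level columns are numbered. Their breeds follow the order of breed codes in each table's name, which for 2 comparisons differs from the breed the labels attach to the file. The levels of a breed agreed across 2 tables at 461 to 678 shared scaffold sites, with a median gap of 0.0201 to 0.0405 points.

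Members and lists were chosen with earlier results of these data known. Regions were named when they had the most CG sites (3 per comparison), the largest gap among those of at least 10 CG sites (3 per direction), lay on the 3 scaffolds with the most regions (ties broken by the number of listed sites), shared a stretch in all 3 lists or lay on a scaffold with a gene of the study's list. The site at 72579 of JH118484.1, the sites outside regions and the long dense regions were named after their values were seen. Counts, medians and 95% Wilson intervals, which cover counting error only, were obtained in scipy 1.17.1, pandas 2.3.3 and numpy 2.4.6 under Python 3.11.15, with plots from matplotlib 3.10.9. The steps that join and place regions were tested on simulated data. Sequences were not used here, and the labelled tissue was not checked against expressed markers.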

Additional observations from a re-analysis of the deposited data

How the results depend on the processing

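No paired analysis was possible because 1 methylome was made per breed. Limits are the unknown depth, levels shared by neighbouring sites, and breeds that rest on the names of the tables. Over 240 recomputed values, 0 changed the higher breed of a called share. Of the 240, 142 stayed within 1.5 times the count or within the 95% interval, and 98 moved. Among the 98, 18 were the lowest or highest single chromosome, labelled moved without a limit, and are not scaffold values. The order below is ES with LW, ES with WB, and LW with WB, and the cause of each move not set by the filter itself was not tested.

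Regions of at least 10 CG sites numbered 317, 338 and 238, with 6.20, 6.33 and 6.29 CG sites per 100 bp. Their share higher in ES was 42.0% in the second comparison, where the median difference was 36.7 points. Their median level was 58.2% in ES in the first comparison, and 57.4% in LW and 59.3% in WB in the third. Regions of at least 200 bp numbered 341, 333 and 227, with 4.68, 4.56 and 5.01 CG sites per 100 bp. Their median level was 58.8% in ES in the first comparison, and in the third 54.9% in LW, which was higher in 43.6%. Regions at least 40 points apart numbered 411, 391 and 306, with median differences of 51.6, 51.0 and 52.9 points and 5.11, 5.11 and 5.29 CG sites per 100 bp. Their median level was 53.4% and 53.9% in ES, and 54.5% in LW and 71.3% in WB in the third comparison.

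Scaffolds named JH held 218, 203 and 166 regions, with median differences of 42.2 and 42.7 points in the second and the third comparison, against 37.5 for those named GL in the second. That GL median lay just below the highest single chromosome, which had 37.6 points. On JH the median level was 69.6% in LW in the first comparison, 57.6% in ES and 72.7% in WB in the second, where ES was higher in 41.9%, and 71.6% in LW in the third. By CG number, a split added after the data were seen, the median difference was 42.4 and 40.6 points for 4 to 5 sites in the first and the second comparison, 36.7 and 37.2 for 6 to 9 sites in the first and the third, and 35.7, 33.0 and 37.3 for 20 or more.

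With at most 1 site per 100 bp, 1261, 1205 and 1000 sites remained. Their median level was 73.0% in LW in the first comparison, 49.7% in ES in the second, and 54.8% in LW and 62.8% in WB in the third, where LW was higher at 47.4%. The share inside a listed region, recomputed this way after the data were seen, was 58.4%, 60.3% and 54.9% on scaffolds and 34.8%, 37.7% and 34.5% on chromosomes. At sites at least 40 points apart the median was 50.1% and 45.6% in ES, 77.3% in WB in the second comparison and 48.0% in LW in the third.

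Without X, Y and MT rows in the denominator, scaffolds held 10.4%, 9.63% and 10.6% of regions and 11.7%, 10.8% and 12.4% of sites. By sites in exactly 2 lists, ES stood apart at 665, LW at 646 and WB at 448. There ES was lower at 77.1%, LW at 68.1% and WB at 56.9%, against 76.4%, 74.7% and 69.7% on chromosomes 1 to 18. Leaving out the scaffold with the most regions or sites, counting each scaffold once, or asking for a longer overlap (at least 50% of the shorter region) moved none of the planned values beyond these limits.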

Other observations

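At scaffold loci in exactly 2 lists, the levels of the shared breed in both lists lay a median of 0.0614 to 0.680 points apart. Scaffold JH118985.1 held 9 regions although its last listed position was 15437. Of the 10 scaffolds with the most listed sites, GL894431.1 (76 sites) and GL896258.1 (58 sites) each held 2 regions, and their last listed positions were 2146 and 5240.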
